A study of Mus musculus with 96 samples.

Results

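Transcripts of the surface markers that are used to sort haematopoietic stem cells (HSCs) were followed in single mouse embryonic cells, with emphasis on which of them were read together in the same cell. The markers were Kit, Procr, Ly6a, Slamf1, Slamf2, Cd48, Ptprc, Itgam, Cd34 and Cd27, and their rows were found by symbol in the table of read counts. Of the 10 names, 9 had a row, which makes 9 of the 19836 genes of the table. Slamf2 had no row of its own, and RefSeq lists that name as an older symbol of Cd48, so Cd48 stands for both. Cells came from C57BL/6 embryos, and each well of a plate received 1 cell. There were 48 pre-HSCs of the aorta-gonad-mesonephros region (AGM) and 16 pre-HSCs of the yolk sac, all at embryonic day E11.5 and sorted as Ter119-, CD11b-, CD144+, c-kit+ and EPCR+. The fetal liver gave 16 HSCs at E12.5, sorted as Ter119-, Sca-1+, c-kit+ and EPCR+, and 16 HSCs at E14.5, sorted as Ter119-, Sca-1+, c-kit+, CD48- and CD150+. Age, tissue and gate differed together, so their parts in a difference between stages cannot be told apart. The AGM and the yolk sac had the same age and gate. No animal or litter is given for any cell, so a group counts as 1 sample. No test was made, and differences between groups lack a replicate check.

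These genes encode proteins of the cell surface with separate roles. Kit is the receptor tyrosine kinase for stem cell factor (Kitl). Procr encodes EPCR, the endothelial protein C receptor. Ly6a encodes Sca-1, a membrane-anchored protein of the Ly6 family. Cd34 encodes a sialomucin of endothelium and blood progenitors, and Cd27 encodes a receptor of the TNF receptor family. Slamf1 (CD150) and Cd48 belong to the SLAM family, whose members bind each other or themselves between blood cells. Ptprc encodes CD45, a tyrosine phosphatase of nearly all nucleated blood cells, and Itgam encodes CD11b, the alpha chain of an integrin of myeloid cells. Pre-HSCs arise from endothelium that carries CD144 (Cdh5), gain CD45 as they mature, and settle in the fetal liver, where they expand. In the fetal liver, HSCs are commonly enriched as CD150-positive and CD48-negative cells.

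All 9 gene IDs of the table matched the GENCODE M21 annotation of GRCm38, version included. Slamf1 (chr1:171767127-171801184, plus strand) and Cd48 (chr1:171682009-171705258, plus strand) were neighbours, 61868 bases apart. Ptprc (chr1:138062861-138175708, minus strand) and Cd34 (chr1:194938819-194961279, plus strand) lay on the same chromosome. Kit was at chr5:75574916-75656722 and Procr at chr2:155751117-155755471, both on the plus strand. Cd27 was at chr6:125232622-125237010 and Ly6a at chr15:74994877-74998031, both on the minus strand, and Itgam was at chr7:128062640-128118491 on the plus strand. Vamp1 overlapped Cd27 on the opposite strand, and the antisense gene Gm16897 overlapped Cd34. The sources used here do not say that counting used the strand, so reads in those overlaps cannot be told apart. On the same strand, Mir8113 overlapped Cd27, Gm37010 overlapped Cd48, A130071D04Rik overlapped Ptprc and Gm49368 overlapped Itgam. How reads that fit more than 1 gene were counted is not given, so the counts of these markers are uncertain there. Among 48 AGM cells, Vamp1 was read in 8 against 28 for Cd27, and Gm16897 in 29 against 47 for Cd34. Ly6a is part of a multigene family with close copies, so its counts are uncertain where a read fits more than 1 copy.

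Promoter sequence from RefSeq (GRCm38.p6, 250 bases before to 50 after the start site) was present for 8 of the 9 genes. They are shown for 3 genes because Kit and Procr were among the genes of the E11.5 gate and because Procr and Slamf1 were read together at E14.5. Each runs 5′ to 3′ on the gene's strand and ends 1 base before the annotated gene start. Capitals mark matches to AGGAAG, a core of ETS factor sites, which was searched on both strands.
Kit, chr5:75574737-75574915: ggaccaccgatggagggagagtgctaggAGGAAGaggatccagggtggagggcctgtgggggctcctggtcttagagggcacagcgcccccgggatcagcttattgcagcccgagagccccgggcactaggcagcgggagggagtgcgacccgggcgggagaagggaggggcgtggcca
Procr, chr2:155750967-155751116: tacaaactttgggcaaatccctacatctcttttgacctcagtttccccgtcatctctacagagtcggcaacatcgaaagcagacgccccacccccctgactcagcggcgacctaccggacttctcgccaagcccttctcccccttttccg
Slamf1, chr1:171766882-171767126: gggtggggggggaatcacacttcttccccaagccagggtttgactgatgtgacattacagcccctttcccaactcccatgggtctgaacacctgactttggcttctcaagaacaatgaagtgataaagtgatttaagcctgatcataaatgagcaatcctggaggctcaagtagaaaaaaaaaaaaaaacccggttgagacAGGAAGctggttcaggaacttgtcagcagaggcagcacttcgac
The Kit and Slamf1 stretches each held 1 ETS match and the Procr stretch held none. Over the whole 300-base entries, AGGAAG was found in 6 of the 8 genes (Kit, Cd34, Slamf1, Cd48, Ptprc and Itgam) and in 35.4% of all 32851 promoters. The RUNX core TGTGGT was found in Cd48 alone (16.8% of all promoters), and the GATA core AGATAA in 1 of the entries of Ptprc (11.2%). The E-box CAGCTG was found in Procr, Slamf1 and Ptprc (16.3%). None of the other 3 motifs had a match in the printed stretches.

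Cells had 250235 to 1926882 reads, and the median number of genes with a read was 5522.5 for AGM, 5349.5 for yolk sac and, for the liver, 4036 at E12.5 then 4839 at E14.5. Of a haematopoietic marker list, the median cell had a read of 6 of 8 genes in every group. Of an endothelial list of 6 genes, the median cell had 5 in the AGM, 3 in the yolk sac and, in the liver, 1.5 at E12.5 then 2 at E14.5. The summed level of the list had another order, with medians of 692 CPM (AGM), 491 CPM (E12.5), 189.2 CPM (yolk sac) and 180.4 CPM (E14.5). Some wells stood apart. E12.5 cell 8 had 1011 genes, a summed macrophage marker level of 13667 CPM (reads of the genes scaled to the usual fixed total of reads per cell) and 0 of the 9 sort markers. E14.5 cells 3, 8, 13 and 16 had summed erythroid marker levels between 43228 and 213985 CPM, where the next highest E14.5 cell had 1510 CPM. In 8 cells at least 9000 genes had a read, and these were 4 AGM cells, 3 yolk sac cells and 1 E12.5 cell. The part of these wells in the results below was not tested beyond the values given without them.

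**Figure D1:**
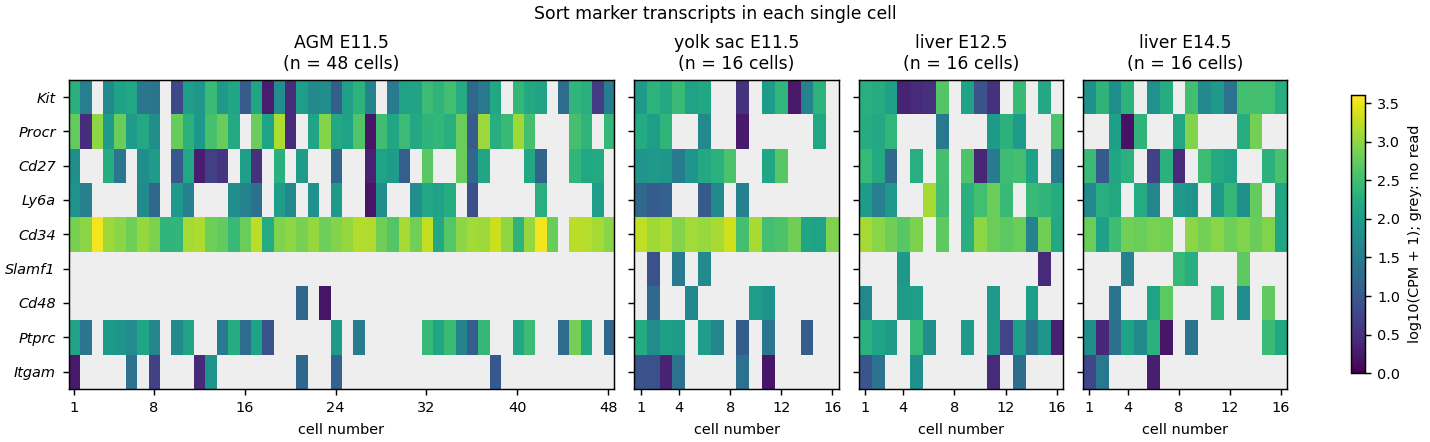
Level of each sort marker transcript in each of the 96 cells, as log10(CPM + 1), with genes in rows and cells in columns by group. Grey fields have no read. Cd34 had a read in nearly every cell and Slamf1 in 0 of the 48 AGM cells.

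The gates were first read at the transcript level, as the number of cells with at least 1 read of each of several gate genes. For the E11.5 gate, Kit and Procr were counted first, and Cdh5 and Itgam were added after. In AGM, 38 of 48 cells (79.2%, exact Clopper-Pearson 95% interval 65.0% to 89.5%) had both Kit and Procr. Such an interval covers only the counting of cells within 1 sample, not a spread between animals or litters. In yolk sac, sorted with the same gate, 6 of 16 cells had both (37.5%, 15.2% to 64.6%), and these were cells 1, 2, 3, 6, 9 and 15. The intervals of AGM and yolk sac did not overlap. When every cell was thinned to 250000 reads, the counts were 35 of 48 (72.9%, 58.2% to 84.7%) and 6 of 16 (37.5%, 15.2% to 64.6%), and the intervals then overlapped. Each tissue is 1 sample, so whether the tissues differ was not tested. With Cdh5, the gene of CD144, added, 35 AGM cells and 5 yolk sac cells had all 3 genes. A further condition of the gate, absence of CD11b, left 28 AGM cells and 2 yolk sac cells without an Itgam read. AGM cells 9 and 43 had neither Kit nor Procr, and neither did 4 yolk sac cells.

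The gates of the liver groups were read in the same way. At E12.5, 5 of 16 cells (31.25%, 11.02% to 58.7%) had Kit, Procr and Ly6a together, and these were cells 1, 2, 3, 7 and 11. The AGM had 18 cells with these 3 genes together, the yolk sac 5 and the E14.5 liver 4, although neither the E11.5 nor the E14.5 gate asks for all 3. At E14.5, 1 of 16 cells (6.25%, 0.158% to 30.2%), cell 9, had Kit, Ly6a and Slamf1 and lacked Cd48. That cell had 317.9 CPM of Kit, 70.8 CPM of Ly6a and 188.3 CPM of Slamf1, and also the highest Procr of its group, 819 CPM. Without the SLAM genes, Kit and Ly6a were together in 10 of 16 E14.5 cells and 9 of 16 E12.5 cells. No E14.5 cell lacked both Kit and Ly6a, an outcome that still permits 18.75% of cells, and E12.5 cell 8 was the 1 cell of its group that did. Without the 4 E14.5 cells with high erythroid markers, the E14.5 gate was met by 1 of 12 cells.

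**Figure D2:**
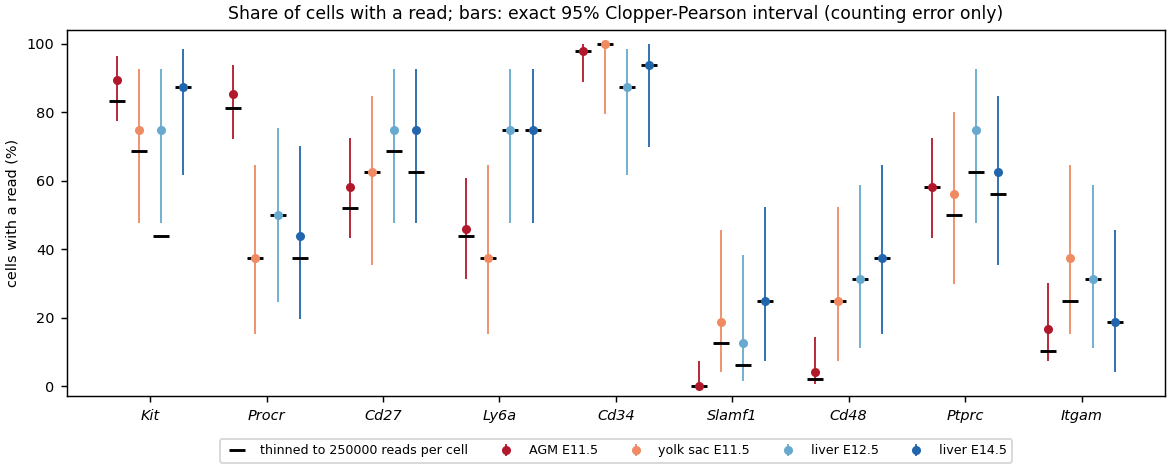
Share of cells with at least 1 read of each gene (points, in percent) with exact Clopper-Pearson 95% intervals, in 48 AGM cells and 16 cells of each other group. The intervals cover only the counting of cells within a group. Black dashes give the share after each cell was thinned to 250000 reads. Kit at E12.5 differed most with thinning, from 75% to 43.75%.

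A read is not always a strong signal. Kit had a read in 12 of 16 E12.5 cells, but 5 of these had under 10 CPM, and after thinning 7 cells remained (43.75%). Procr in E14.5 cell 4 rested on 1 read, and Itgam stayed under 10 CPM in 4 of its 8 positive AGM cells, 4 of 6 in the yolk sac, 2 of 5 at E12.5 and 2 of 3 at E14.5. Cdh5 was under 10 CPM in 16 of its 45 positive AGM cells. Cd34 reached 10 CPM in every cell that had a read of it.

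The number of sort markers per cell ran from 1 to 7 in AGM and 1 to 9 in yolk sac, and in the liver from 0 to 8 (E12.5) and 3 to 7 (E14.5). The medians were 5, 4, 5 and 5. Yolk sac cell 2 was the 1 cell with all 9. Cells with more genes detected had more of the markers: Spearman's rho between the numbers was 0.35 over 48 AGM cells, 0.78 over 16 in the yolk sac, 0.77 over 16 from the E12.5 liver and 0.41 over 16 from the E14.5 liver. Both numbers come from the same library, so the values are a description. Marker combinations were diverse. The 48 AGM cells had 20 different combinations, the most common being Kit, Procr, Cd27, Cd34 and Ptprc in 8 cells. The 16 yolk sac cells had 15 combinations, and each liver group had 14.

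**Figure D3:**
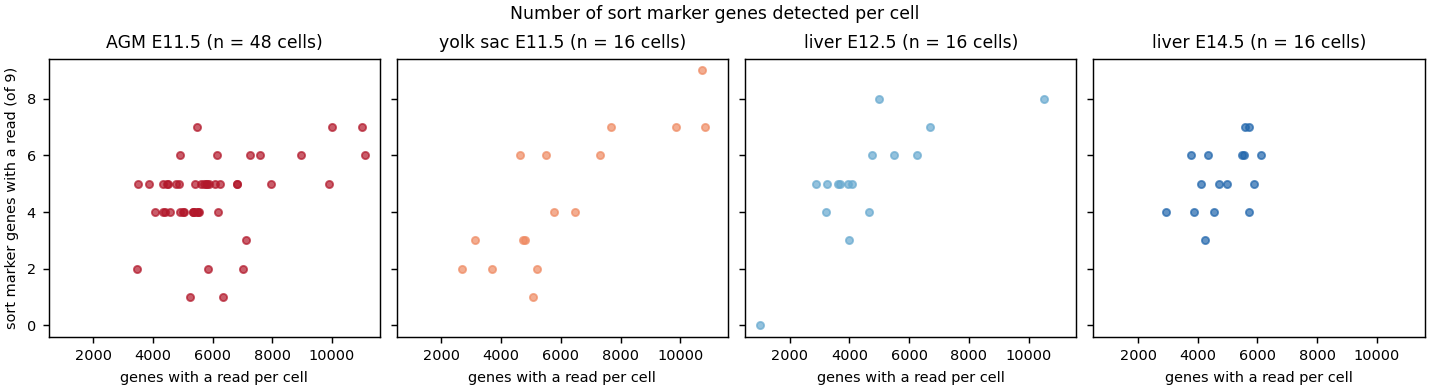
Number of the 9 sort marker genes with a read against the number of all genes with a read, 1 point per cell, for 48 AGM cells and 16 cells of each other group. The yolk sac cells with at least 7 markers lay to the right of those with at most 3, and E12.5 cell 8, at 1011 genes, had 0 markers.

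Each of the 36 pairs of the 9 genes was then counted in each group. The number of cells with both genes was set against the product of the single shares, which is the number of cells that would hold both if the genes were read independently of each other. In AGM, 20 pairs were above the product and 8 below. The 8 others involve Slamf1, which had no read. Of all pairs of a sort marker with any other gene of the table, 63.3% were above the product in AGM. In yolk sac, 24 pairs were above, 3 below and 1 equal, against a background of 80.8%. The 8 pairs with Cd34 there had no defined excess, since every cell had Cd34. At E12.5, 24 pairs were above, 8 below and 4 equal, against 71.7%. At E14.5, 16 were above, 19 below and 1 equal, against 55%. As a share of the pairs with a defined product, the marker pairs above it made up 71.4% (AGM), 85.7% (yolk sac), 66.7% (E12.5) and 44.4% (E14.5), each within 11 percentage points of its background. Without E12.5 cell 8, the 1 cell under 2000 genes, 18 pairs were above and 15 below at E12.5. The background of 71.7% includes that cell and was not computed without it, so it does not apply to these counts. The largest count in each group was that of a pair with Cd34. This pair was Kit with Cd34 except at E12.5, where Cd27 with Cd34 had 12 cells against a product of 10.5. The AGM held 42 cells with Kit and Cd34 together, the yolk sac 12, the E12.5 liver 11 and the E14.5 liver 14, close to the products of 42.1, 12, 10.5 and 13.1 cells.

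**Figure D4:**
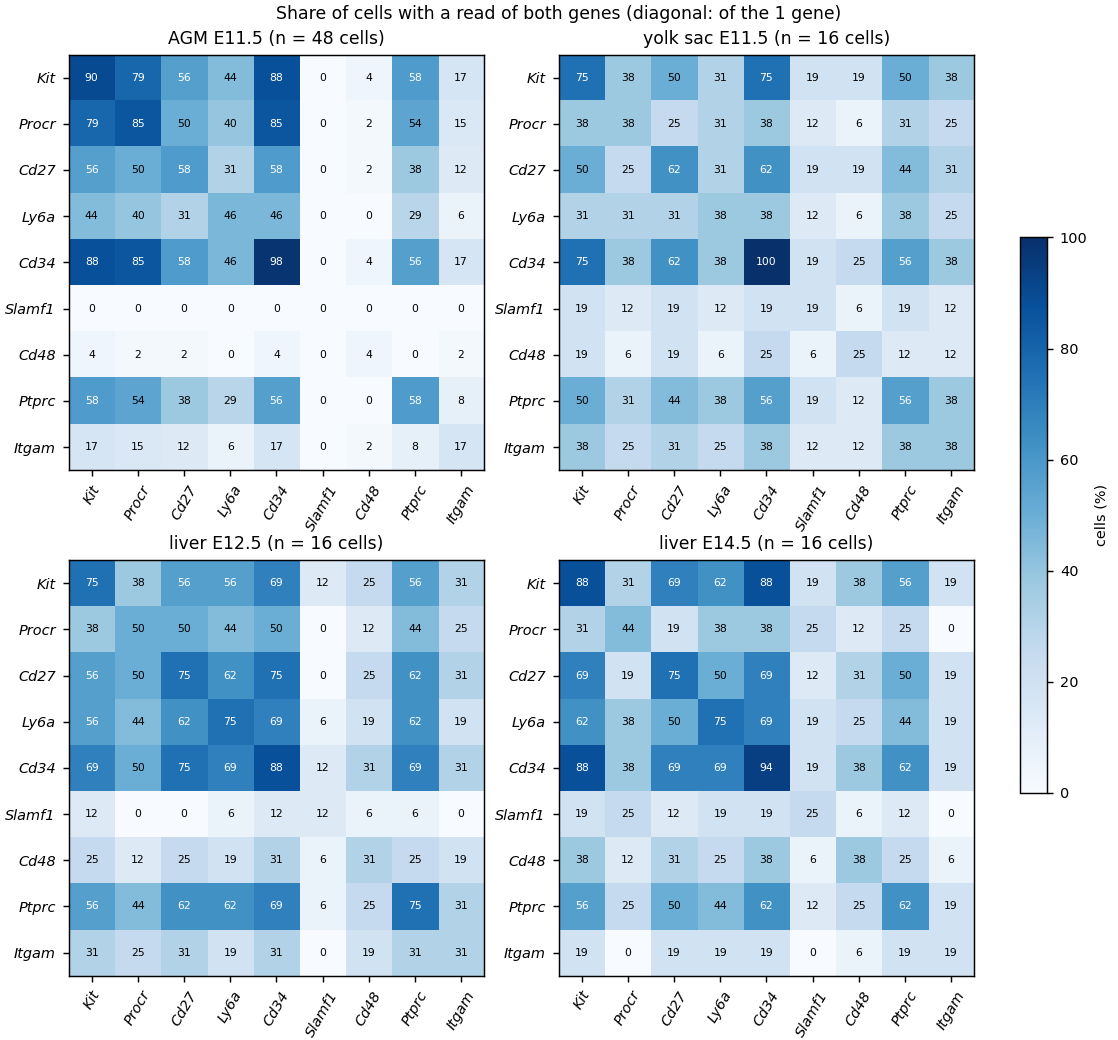
Share of cells, in percent, with a read of both genes of each pair, in 4 groups (48 AGM cells, 16 cells in each other group), with the share of each single gene on the diagonal. Kit with Procr reached 79% of AGM cells and 38% of yolk sac and E12.5 cells.

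**Figure D5:**
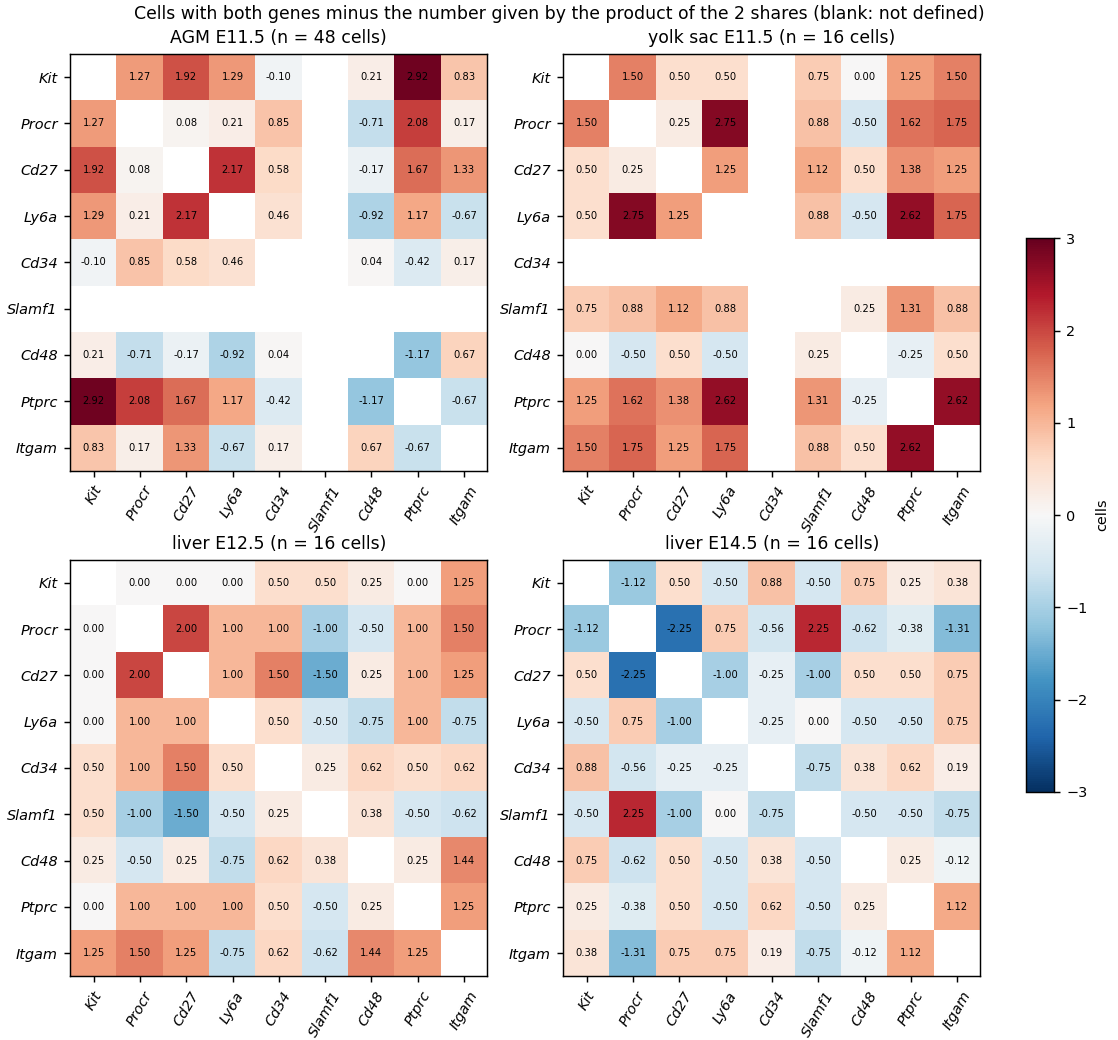
Number of cells with both genes minus the number given by the product of the single shares, for each pair in each group. Blank fields off the diagonal involve a gene read in 0 or in all cells of the group. Kit with Ptprc stood highest in AGM, at 2.92 cells, and Procr with Slamf1 highest at E14.5, at 2.25 cells.

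In AGM the pair with the largest excess was Kit and Ptprc. All 28 cells with a Ptprc read had Kit, against 15 of the 20 cells without Ptprc, and the product gave 25.1 cells. Kit levels in the Ptprc-positive cells had a lowest value of 0.948 CPM, a median of 112 CPM and a highest value of 322 CPM. In the Ptprc-negative cells these were 0, 52.6 and 284 CPM, so the groups overlapped over most of their range. Spearman's rho of Kit and Ptprc CPM over the 48 cells was 0.48, a description of values that share each cell's library. With at least 10 CPM asked of both, 26 cells had both against a product of 21.9, and 1 cell had Ptprc without Kit. Most of these cells also had the endothelial gene Cdh5, namely 27 of the 28 Ptprc-positive cells, as did 18 of the 20 others. After thinning, 23 AGM cells had both Ptprc and Cdh5, and 17 had Cdh5 without Ptprc.

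Cd27 and Ly6a came next in AGM, together in 15 cells where the product gave 12.8. Procr and Ptprc were together in 26 cells, where the product gave 23.9. Kit and Procr, both genes of the gate, were together in 38 cells against 36.7, and 5 cells had Kit alone and 3 Procr alone. The excess was thus small beside the cells expected from 2 genes that are each read in most cells. Cd48 had a read in AGM cells 21 and 23 only, at 14.3 and 0.599 CPM. Both of these cells lacked Ptprc and Ly6a, where the products gave 1.17 and 0.917 cells. With 2 cells, a count of 0 cannot show that Cd48 avoids either gene.

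In yolk sac the largest excess was that of Procr and Ly6a. Of 16 cells, 5 had both, 1 had Procr alone, 1 had Ly6a alone and 9 had neither, and the product gave 2.25 cells. All 6 Ly6a-positive cells had Ptprc, against 3 of the 10 others. All 6 Itgam-positive cells likewise had Ptprc and Kit. All 6 Procr-positive cells had Kit, and 5 of them had Cdh5, against 2 of the 10 Procr-negative cells. The cells with Procr and Ly6a had a median of 9848 genes, and the 11 others 4814, so the sets also differed in the number of genes detected. Its part in the excess was not tested. Thinning to 250000 reads, which levels reads and not genes, left 5 cells with both against a product of 2.25. With at least 5 reads of each gene 4 cells had both against 1.88, and at 10 CPM 3 cells against 1.56. Without the 3 yolk sac cells with at least 9000 genes, 2 of 13 cells had both against a product of 0.692. The levels of Ly6a in the 6 positive cells were low, between 9.55 and 51.7 CPM with a median of 14.02 CPM. Those of Procr lay between 0.802 and 225.7 CPM.

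At E12.5, all 8 cells with Procr had Cd27, and all 8 had Cd34, against 4 and 6 of the 8 cells without Procr. The cells with Procr had a median of 5233 genes and those without it 3803.5, so the sets also differed in the number of genes detected. The part of that difference in the overlaps was not tested. The product for Procr and Cd27 was 6 cells. With at least 5 reads, or at 10 CPM, or after thinning, the 8 cells with both stayed at 8 and the product was 5.5. Cd27 and Cd34 were together in 12 of 16 cells against a product of 10.5, and no cell had Cd27 without Cd34. Kit and Procr were together in 6 cells, and the product was also 6. Without E12.5 cell 8 the product was 11.2 for Cd27 with Cd34, and 6.4 both for Kit with Procr and for Procr with Cd27, while the counts of cells with both were the same. Slamf1 had a read in E12.5 cells 4 and 15, at 82.0 and 1.77 CPM, and neither cell had Procr or Cd27. The products there were 1 and 1.5 cells.

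At E14.5, Procr was no gate gene. All 4 cells with Slamf1 had Procr, against 3 of the 12 others, where the product gave 1.75 cells. Slamf1 was 38.9 CPM in cell 4, 256.9 CPM in cell 8, 188.3 CPM in cell 9 and 511 CPM in cell 13. Procr in the same cells was 0.519, 145.3, 819 and 176.2 CPM, so in cell 4 the overlap rested on a single Procr read. With at least 5 reads of each gene, 3 cells had both against a product of 1.5. Cells 8 and 13 were among the wells with high erythroid markers, and without those 4 wells 2 of 12 cells had both, against a product of 0.667. The Slamf1-positive cells had a median of 4917.5 genes and the others 4839.

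Procr and Cd27 were together in fewer E14.5 cells than the product gave. Of the 7 Procr-positive cells 3 had Cd27, whereas all 9 Procr-negative cells did, and the product was 5.25 cells with both. Procr in the 4 cells without Cd27, which were cells 5, 9, 13 and 14, lay between 176.2 and 819 CPM. In the 12 cells with Cd27 it lay between 0 and 145.3 CPM, with a median of 0, so the sets did not overlap in Procr when 1 read counted. Cell 6 had 4 Cd27 reads and 0 Procr reads. With at least 5 reads asked of Cd27 it fell among the cells without Cd27, and the sets then overlapped. With at least 5 reads of each gene, 1 cell had both where the product gave 3.75. Without the wells with high erythroid markers, 1 of 12 cells had both against a product of 3. The same pair had an excess at E12.5, of 2 cells. Whether the stages differ was not tested, since each is 1 sample. Every E14.5 cell had Kit or Procr, and the 2 cells without Kit, cells 5 and 8, had Procr at 215.3 and 145.3 CPM.

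The SLAM genes of the E14.5 gate were seldom read in the pattern of the gate. Slamf1 without Cd48 was found in 3 of 16 E14.5 cells (cells 4, 8 and 9), 2 yolk sac cells, 1 E12.5 cell and 0 of 48 AGM cells, which allows up to 6.25% of AGM cells. The reverse, Cd48 without Slamf1, was found in 5 E14.5 cells (3, 6, 7, 11 and 15). Cell 13 had both, and 7 cells had neither. The product for both genes was 1.5 cells. Cd48 levels in the 6 positive E14.5 cells ran from 23.4 to 533 CPM with a median of 172.5 CPM, and cells 7 and 15 stood highest, at 492.5 and 533 CPM. All 6 had Kit and Cd34, and 5 had Cd27. The counts of Slamf1 with and without Cd48 at E14.5 were the same with at least 5 reads, at 10 CPM or after thinning.

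Itgam was read in cells that mostly also had Ptprc, except in AGM. At E14.5 the 3 Itgam-positive cells all had Ptprc, where the product was 1.88 cells, and none had Procr, where it was 1.31. At E12.5 all 5 had Ptprc, where the product was 3.75, and in yolk sac all 6, where it was 3.38. The cells with both genes had a median of 6261 genes at E12.5 and 8579.5 in yolk sac, and the other cells 3677 and 4939. The part of that difference in the overlap was not tested. In AGM 4 of the 8 Itgam-positive cells had Ptprc, where the product was 4.67. At 10 CPM, no E14.5 cell had Itgam and Ptprc together, since 1 cell then counted as Itgam-positive. Levels were low, at most 67.3 CPM in any AGM cell and 21.8 CPM in the yolk sac, and in the liver 63.3 CPM (E12.5) and 27.1 CPM (E14.5). The table holds a second row under the symbol Itgam, which the annotation names Gm49368, a gene that overlaps Itgam on the same strand. It had 1 read, in AGM cell 1, which without it would have no Itgam read.

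Levels by cell gave the following picture for the E11.5 gate. Kit had a lowest, median and highest level of 0, 67.8 and 322 CPM in AGM, and of 0, 91.3 and 284 CPM in yolk sac. At E12.5 these were 0, 4.77 and 432 CPM and at E14.5 0, 128 and 349.7 CPM. All groups overlapped, and the E12.5 median was the lowest. Procr was 0, 179.3 and 1452 CPM in AGM and 0, 0 and 225.7 CPM in yolk sac. Among liver cells it was 0, 13.5 and 396 CPM at E12.5, whereas the E14.5 values were 0, 0 and 819 CPM. The AGM cells held both the highest Procr value and the highest median.

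Ly6a, which enters the gate in the liver, was 0, 0 and 178.999 CPM in AGM and 0, 0 and 51.7 CPM in yolk sac. At E12.5 it was 0, 179.1 and 1302 CPM, and at E14.5 0, 77.9 and 559.6 CPM. A read of Ly6a was found in 22 of 48 AGM cells (45.8%), 6 of 16 in the yolk sac (37.5%) and 12 of 16 at each liver stage (75%), and the highest value, in E12.5 cell 6, was that of a cell with no Cd34 and no Procr.

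Cd34 and Cd27 were part of no gate. Cd34 was the most widely read marker, found in 47 of 48 cells of the AGM (97.9%, 88.9% to 99.9%) and 16 of 16 of the yolk sac, and in the liver in 14 cells at E12.5 then 15 at E14.5. Its levels were 0, 935 and 3451 CPM in AGM and 118, 983 and 2212 CPM in yolk sac. The E12.5 liver gave 0, 563 and 1283 CPM, and the E14.5 liver 0, 660.2 and 948 CPM. The cells without Cd34 at E12.5 were cell 6 and cell 8, and at E14.5 cell 8, a well with high erythroid markers. Cd27 was found in 28 of 48 cells of the AGM (58.3%, 43.2% to 72.4%), 10 of 16 of the yolk sac (62.5%, 35.4% to 84.8%) and 12 of 16 cells at each liver stage (75%, 47.6% to 92.7%). Levels ran through 0, 3.12 and 595 CPM in AGM and 0, 74.6 and 456 CPM in yolk sac. They were 0, 70.9 and 408 CPM in the E12.5 liver, and 0, 127 and 369 CPM 2 days later. The shares of Cd27 overlapped in their intervals throughout.

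Ptprc was found in 28 of 48 AGM cells and 9 of 16 yolk sac cells, and in the liver in 12 cells at E12.5 then 10 at E14.5. Its levels were 0, 18.3 and 709 CPM in AGM and 0, 10.5 and 163.8 CPM in yolk sac. At E12.5 they were 0, 66.4 and 257 CPM and at E14.5 0, 10.9 and 280.4 CPM, with overlap of all groups. The share of cells with both Ptprc and Cdh5 was highest in AGM and lowest at E14.5. CD144, the protein of Cdh5, was sorted for at E11.5 and not in the liver, so stage and sort cannot be told apart here. Ptprc and Cdh5 were together in 27 of 48 AGM cells but in 6 of 16 from the yolk sac, and in the liver in 3 (E12.5) and 1 (E14.5). Ptprc without Cdh5 was found in 1 AGM cell (cell 41), 3 yolk sac cells and 9 cells at each liver stage. Cdh5 without Ptprc was found in 18 AGM cells, 1 yolk sac cell and 0 of 16 cells at either liver stage, which allows up to 18.75% of each.

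For an order between genes, pooled reads were scaled to the merged exon length, as CPM per kilobase. On this scale Cd34 and Procr were level in AGM, at 145.96 and 145.89, followed by Cd27 at 31.99, Ly6a at 26.01, Kit at 10.4 and Ptprc at 3.97. In yolk sac the order was Cd34 (137), Cd27 (40.999), Procr (24.3), Cd48 (12.1) and Kit (11.4), with Ly6a at 8.07. At E12.5 Ly6a stood first at 187.4, before Cd34 at 77.4, Cd27 at 57.3 and Procr at 44.7. At E14.5 Cd34 and Cd48 were both at 86.7, followed by Ly6a at 79.1, Procr at 62.1 and Cd27 at 57.9, while Slamf1 was at 10.4. Neighbours in these orders were not separated beyond the spread between cells, which was wide for every gene. The merged length counts all annotated exons, so genes with many transcripts, such as Ptprc with 18313 bases, are understated.

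Reads pooled over the cells of a group were compared as log2 ratios of CPM with 1 CPM added, which makes ratios of low genes too small. In yolk sac against AGM, 2 of the 9 genes were at least 2-fold higher, Slamf1 and Cd48, and 8.61% of the 15239 genes compared were. Another 2 were at least 2-fold lower, Procr and Ly6a, against 21% of all genes. Pooled Procr was 49.4 CPM in yolk sac and 296 CPM in AGM, a log2 ratio of -2.56, and without yolk sac cell 3 it was 35.8 CPM. Pooled Ly6a was 9.73 and 31.3 CPM, a log2 ratio of -1.59, and 6.22 CPM without yolk sac cell 7. Cd48 was 14.4 CPM in yolk sac and 0.365 CPM in AGM, where cell 21 held 95.5% of its reads and 0.0170 CPM was left without it. Slamf1, with 0 reads in AGM, was at least 129.7-fold higher against a floor of 3 reads over the AGM. It was 6.46 CPM, and 2.60 CPM without yolk sac cell 6. With 10 CPM added, Slamf1 was no longer past the fold. As a difference of the mean log2(CPM + 1) over cells, Slamf1 (0.84) and Ly6a (-0.98) were inside the fold and Cd27 (1.16) was past it. Ptprc, at a log2 ratio of -0.63, was inside the fold and passed it at -1.02 without yolk sac cell 1. Itgam was 3.86 CPM in yolk sac, and 2.51 CPM without yolk sac cell 4. Its log2 ratio of 0.97 was just inside the fold and passed it at 1.18 without AGM cell 21 and at 1.04 with median-of-ratios scaling. The median log2 ratio of the 9 genes was 0.12, and that of all genes was -0.20.

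In E12.5 liver against AGM, 4 genes were at least 2-fold higher, Ly6a, Slamf1, Cd48 and Itgam, against 15.6% of all genes. Procr was the 1 gene at least 2-fold lower, against 26%. Ly6a had 225.8 CPM at E12.5 and 31.3 CPM in AGM, a log2 ratio of 2.81 that stayed between 2.41 and 2.98 with any 1 cell left out. Cd48 had 33.1 CPM at E12.5, a log2 ratio of 4.64. Itgam had 8.61 CPM at E12.5 and 1.48 CPM in AGM, a log2 ratio of 1.96, and 4.93 CPM without E12.5 cell 5. Slamf1 rested on E12.5 cell 4, without which its log2 ratio of 3.03 became 0.16. Procr had 90.7 CPM, a log2 ratio of -1.70. Pooled Kit had a log2 ratio of 0.16, and -0.19 without E12.5 cell 7. The difference of its mean log2(CPM + 1) over cells was -1.46, past the fold in the lower direction, so the pooled and the per-cell value of Kit differ in sign. Ptprc had a log2 ratio of 0.09, and -0.15 without E12.5 cell 5. Cd34 at -0.91 and Cd27 at 0.83 were just inside the fold, and Cd34 passed it at -1.02 without E12.5 cell 1, as Cd27 did at 1.12 without AGM cell 35 and at 1.05 with the mean of the cells' CPM. In mean log2(CPM + 1) over cells, Cd27 (1.72) and Cd34 (-1.77) were past the fold, while Slamf1 (0.49) and Itgam (0.67) were not. The median of the 9 genes was 0.83 and that of all genes -0.20. This comparison and the preceding one share the AGM cells.

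In E14.5 against E12.5 liver, 2 genes were at least 2-fold higher, Slamf1 and Cd48, against 18.7% of all genes. Ly6a and Itgam were at least 2-fold lower, against 18.2%. Cd48, which the E14.5 gate excludes as a protein, had 103 CPM at E14.5 and 33.1 CPM at E12.5, a log2 ratio of 1.61 that stayed between 1.06 and 1.89 with any 1 cell left out. Slamf1 had 64.1 CPM against 7.19 CPM, a log2 ratio of 2.99, and 34.98 CPM without E14.5 cell 13. Without the 4 E14.5 wells with high erythroid markers, which include cells 8 and 13, Slamf1 was 23.8 CPM and its log2 ratio 1.597. Cd48 was then 125 CPM, at a log2 ratio of 1.89. The part of these wells in the higher Slamf1 was not tested further. Ly6a had 95.3 CPM against 225.8 CPM, a log2 ratio of -1.24. Without E12.5 cell 6 that ratio was -0.84, inside the fold. Itgam had 1.21 CPM against 8.61 CPM, and 0.401 CPM without E14.5 cell 2. Procr was 126 CPM at E14.5, and 65.7 CPM without cell 9, which held 52.1% of its reads, so that its log2 ratio of 0.47 became -0.46. Kit, at 0.52, Cd34, at 0.16, and Cd27, at 0.02, were inside the fold in pooled reads. In mean log2(CPM + 1) over cells, Kit was 2.29997 higher at E14.5, and Ptprc, at -1.02, was also past the fold. By that value Ly6a (-0.67), Cd48 (0.69) and Itgam (-0.70) were inside it. The median of the 9 genes was 0.16 and that of all genes 0. This comparison shares the E12.5 cells with the comparison of E12.5 liver and AGM.

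Partners of the markers, such as ligands, co-receptors and signalling proteins, were followed from a list of 26 genes, of which 22 were in the table. Cd70, F2rl1, Sh2d1a and Sh2d1b1 were not analysed here. Of the 22, 5 were at least 2-fold higher and 1 lower in yolk sac than in AGM, where 8.61% and 21% of all genes were. At E12.5, 2 were higher and 7 lower than in AGM, beside 15.6% and 26% of all genes. At E14.5, 5 were higher and 5 lower than at E12.5, beside 18.7% and 18.2%. The median log2 ratios were 0.11, -0.25 and 0, and those of all genes -0.20, -0.20 and 0. The most widely read were Siva1 (91 of 96 cells), which binds the tail of CD27, Ptpn6 (90 cells), a phosphatase that dampens Kit signalling, and the Kit adaptor Grb2 (86 cells). Csk (67 cells) and Lyn (64 cells) are kinases of the Src pathway that CD45 regulates, and Sh2b3 (61 cells) is an adaptor that restrains Kit signalling. Lyn was 129 CPM in the E12.5 liver and 46.3 CPM in the E14.5 liver, with log2 ratios of 1.03 for E12.5 against AGM and -1.46 for E14.5 against E12.5.

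Direct partners were read less often. Kitl, the ligand of Kit, had a read in 3 AGM cells, 2 of them with Kit, and in 0 of the 48 cells of the other groups. Itgb2, the chain that pairs with CD11b, had a read in 4 of the 8 Itgam-positive AGM cells against 7 of 40 others. In yolk sac 12 of 16 cells had Itgb2, including 5 of the 6 Itgam-positive cells. At E12.5 the 3 cells with Itgb2 all had Itgam, where the product gave 0.938 cells, and at E14.5 Itgb2 was in 2 of 3 Itgam-positive cells and 3 of 13 others. Cd244a and Cd2, which encode binding partners of CD48, had a read in 5 and 2 of all 96 cells. Cd48 and Cd244a were together in 1 yolk sac and 1 E14.5 cell, and Cd48 and Cd2 in 0 cells of any group. F2r, the thrombin receptor that EPCR-bound protein C can act on, was read in 22 AGM cells, 18 of them with Procr, where the product gave 18.8. It was read in 6 yolk sac, 3 E12.5 and 1 E14.5 cells. Thbd, the thrombomodulin gene, was in 9 AGM cells, 8 of them with Procr.

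Genes with the pattern most like each marker were ranked over the 48 AGM cells by Spearman's rho of CPM, among 8846 genes with a read in at least 10 of them. The values are a description, since all genes of a cell share its library and many were compared. For Kit the leading genes were Lyz2 (rho 0.54), Lsg1 (0.53) and Rpl3 (0.51), and Ptprc ranked 8 at 0.48. For Ptprc they were Lsg1 (0.62), Alox5 (0.52) and Colgalt1 (0.51), and Kit ranked 5. For Procr they were Pik3ip1 (0.59), Agpat3 (0.50) and Ramp2 (0.50), and Kit ranked 52 at 0.37. For Cd34 they were Tm6sf1 (0.62), Igfbp4 (0.60) and Tsc22d1 (0.59), for Cd27 Hspa9 (0.59), Nfrkb (0.51) and Pus10 (0.51), and for Ly6a Kcnk12 (0.59), Psen2 (0.55) and Ypel2 (0.53). Among the sort markers themselves, Kit with Ptprc was the closest pair, followed by Kit with Procr at 0.37, Procr with Ptprc at 0.33 and Cd27 with Cd34 at 0.32. Ly6a with Procr was the lowest, at -0.14.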

How the data were processed

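The table the authors deposited holds raw counts of reads, not normalized, in 19949 rows for 96 single cells. Per the submitters' processing notes, mm10, FastQC, Trimmomatic 0.36, STAR and HTSeq were used. Their settings are not given in the sources used here. Per the labels' protocols, cDNA was made with a SMART-Seq kit and amplified by 12 PCR cycles, and no molecular identifiers are named.

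Rows with the same symbol were summed, giving 19836 genes. A gene counted as detected in a cell with at least 1 read. CPM is counts scaled by the total reads of the cell or pooled group. Shares have exact Clopper-Pearson 95% intervals. For a count of 0 cells the limit is 3 cells of the group. A fold against 0 reads uses a floor of 3 reads over the group. Ratios use genes with at least 30 reads. Thinning to 250000 reads left out 0 cells. No doublet caller was run, since 1 cell was sorted into each well.

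Alternatives were at least 5 reads, at least 10 CPM, thinning, cells with at least 2000 genes, median-of-ratios scaling, the mean of the cells' CPM, no minimum on reads, 10 CPM in place of 1 CPM, and each cell left out. Leaving out E14.5 cells with an erythroid level of at least 10000 CPM, or cells with at least 9000 genes, and the difference of mean log2(CPM + 1) over cells, was chosen after seeing the data. The members, lists and tests were chosen with earlier results of these data known. Named were all markers, in each group the 3 pairs with the most cells and the 2 with the largest excess and shortfall, the 6 most widely read partners, the direct partners except 1 that is not reported here, and the 3 genes most like each marker read in at least 10 AGM cells. Other genes and pairs named beside these were chosen after their values were seen. The lists not described further were granulocyte and mast cell, megakaryocyte, hepatocyte and mesenchymal. The calculations were tested on simulated counts, and run with Python 3.11.15, numpy 2.4.6, pandas 2.3.3 and scipy 1.17.1.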

Additional observations from a re-analysis of the deposited data

How the results depend on the processing

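No paired analysis was possible because no test was made and cell numbers are well names. The 4 gate shares, at E11.5 those of Kit with Procr, stayed within their main intervals under all 17 settings run for them. The intervals were wide, as from 0.158% to 30.2% at E14.5, and most settings recounted the same cells, so this is a weak check. The counts of pairs above the product stayed within 1.5 times in all 17. Of 612 recounts of single pairs 35 left the main interval, and 4 recounts of single genes did. With 10 CPM added, 1 gene was at least 2-fold higher in yolk sac than in AGM, 2 were higher at E12.5 than in AGM, and 1 was lower at E14.5 than at E12.5. The added amount itself shrinks the ratios of low genes. No pooled ratio past the fold had the opposite sign under another setting. With the difference of mean log2(CPM + 1) over cells, chosen after seeing the data, 1 gene was at least 2-fold lower in yolk sac than in AGM, 3 were lower at E12.5 than in AGM, and 1 was lower at E14.5 than at E12.5. The shares of all genes given above belong to the main setting and do not apply to the counts under these other settings. Those counts are therefore no result about the markers. The number of cells limits the shares: a count of 0 in 16 cells allows 18.75% of cells. Thinning changed the count of cells with Kit at E12.5, from 12 to 7. The cells lost had few Kit reads, while Kit was high in other cells of that group. Whether depth explains the cells with few Kit reads was not tested.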

Other observations

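Markers of other lineages gave further values beside the sort markers. Hepatocyte genes (Afp, Ttr, Apoa1 and Apoa2) had no read in any E14.5 cell and a summed level of at most 4.998 CPM in any E12.5 cell. In yolk sac their sum reached 780.3 CPM in cell 3, while the median of the group was 0.394 CPM. The highest AGM cell had 156.5 CPM. Megakaryocyte markers had median sums of 150.2 CPM (AGM), 247 CPM (yolk sac), 237 CPM (E12.5) and 419 CPM (E14.5). Granulocyte and mast cell markers had medians of 319, 437, 688 and 316 CPM in the same order. The medians of the mesenchymal list were 0 CPM in all 4 groups.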
